A study of Mus musculus with 2 samples.

Results

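The cytosolic ribosomal protein genes encode the protein subunits of the ribosome, large subunit proteins being named Rpl and small subunit proteins Rps, with the stalk proteins Rplp0, Rplp1 and Rplp2 and the small subunit protein Rpsa. Members were taken by name: probe sets with exactly 1 gene symbol in the platform annotation that starts with Rpl or Rps and a digit, or is 1 of the other names just given, without pseudogenes, ribosomal S6 kinases and Rps19bp1. This gave 100 of 22626 probe sets and 48 of 12393 genes, of which 26 belong to the large and 22 to the small subunit. The naming rule uses no measured value, but it was set with earlier results of these data known. The RNA came from mouse fibroblasts of the embryonic line NIH 3T3, taken 48 hours after Lipofectamine transfection. In 1 sample the cells carried the plasmid pHA-CMV-ATCE1-C-del, which drives a C-terminally deleted, nuclear form of ATCE1, and in the other the pHA-CMV vector without insert. ATCE1 is a transcription factor of the CREB family, and its gene is now called Creb3l4. The plasmid is named for the viral CMV promoter and was introduced into a fibroblast line in which no measure of the transfected share of cells was at hand.

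Ribosomal proteins are made in roughly matched amounts so that each ribosome receives a full set. Most of their mRNAs start with a C followed by a run of pyrimidines, the 5′ terminal oligopyrimidine (TOP) tract, through which the kinase complex mTORC1 and the RNA-binding protein Larp1 control their translation. The large subunit forms peptide bonds and holds the exit tunnel, and the small subunit binds the mRNA and decodes it.

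Each group had 1 array, so no value carries a replicate error and no test was possible. Differences are log2 ratios with ATCE1-C-del on top and empty vector below, from MAS5 signals scaled to 1 trimmed mean. A probe set was measured where its signal reached the median of its array, 77.4 for ATCE1-C-del and 75.9 for empty vector. The brightest probe set stood for its gene. Creb3l4 was read by 1 probe set, at 18 with ATCE1-C-del against 20.7 with empty vector, both under these medians, so the arrays do not check the label. All 9 fibroblast markers were measured, 5 of them higher and 4 lower with ATCE1-C-del, from Pdgfrb at 1072 with ATCE1-C-del against 1459 with empty vector (-0.44) to Thy1 at 1831 with ATCE1-C-del against 1642 with empty vector (0.16). Of 25 markers of epithelial, endothelial, macrophage, muscle and spermatid cells only Cd68 was measured, on the ATCE1-C-del array. As a sign of RNA quality, 3′ over 5′ signal came to 1.07 (ATCE1-C-del) and 1.12 (empty vector) for Actb, and for Gapdh to 0.902 (ATCE1-C-del) and 0.772 (empty vector). Added hybridisation control RNAs had a median log2 ratio of -0.25 over 18 probe sets.

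Under the reported scaling, ribosomal protein genes lay slightly higher on the ATCE1-C-del array in both subunits. Of 46 measured genes 42 were higher and 4 lower, where 48.7% of all 6806 measured genes were higher and 51.3% lower. The excess did not hold under every scaling, since 22 of 46 were higher after quantile normalization and 25 of 46 after lowess, against 36 of 46 with equal array medians. Their median log2 ratio was 0.09, a 1.07-fold difference, against -0.01 for all measured genes. None of the 46 passed 1.5-fold, a size that 0.94% of all measured genes passed upward and 1.07% downward. At 1.2-fold, only Rpl27a was higher and only Rpl22 and Rps25 were lower, where 9.42% of all genes were higher and 12.3% lower by that much. In bulk RNA, more RNA per cell and a changed share of cells cannot be told apart. Member probe sets held 4.40% of the summed signal of all probe sets with ATCE1-C-del against 4.19% with empty vector.

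**Figure D1:**
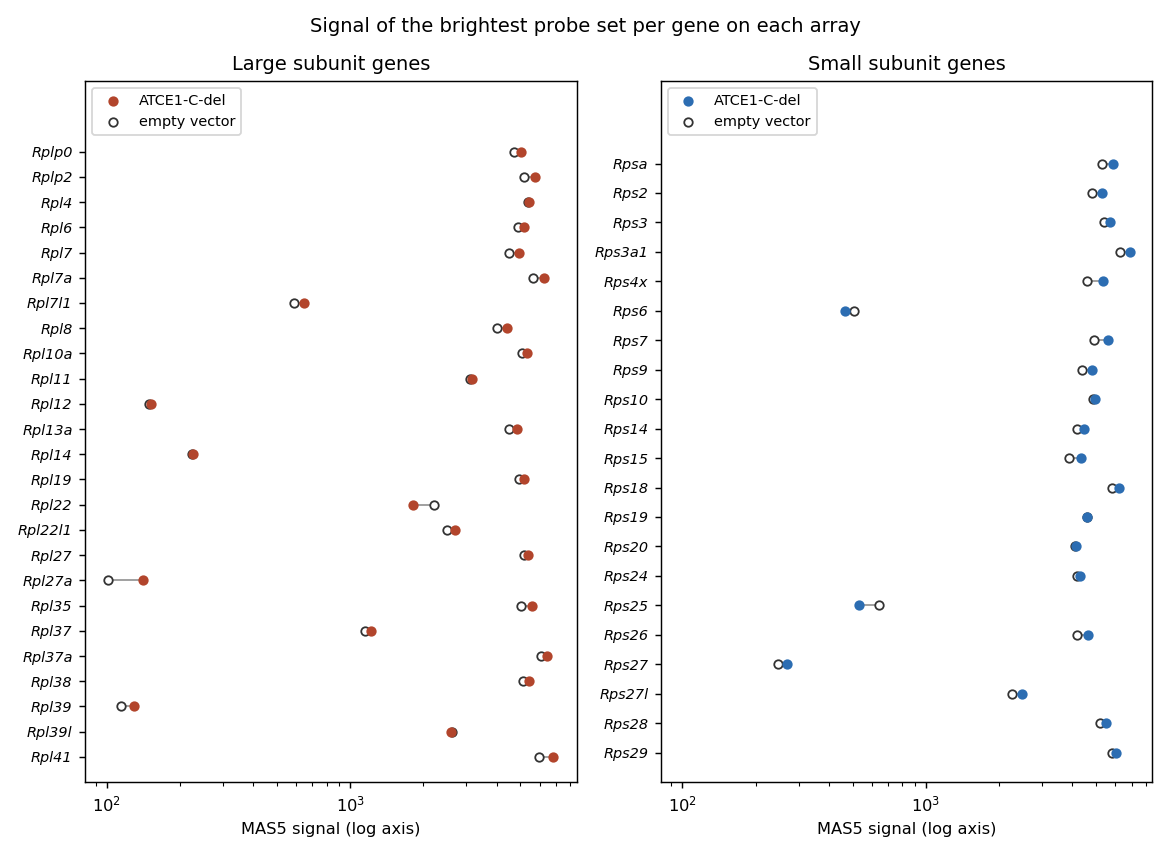
MAS5 signal (log axis) of the brightest probe set of each measured large subunit gene (left, 25 genes) and small subunit gene (right, 21 genes), ordered by the number in the symbol. Filled points are the ATCE1-C-del array and open points the empty vector array, 1 array each. The filled point lies left of the open one for Rpl22, Rpl39l, Rps6 and Rps25, and signals of different genes also differ with their probes and are not levels to be ranked.

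The subunits were compared by their counts and medians, with no test. In the large subunit 23 of 25 measured genes were higher with a median log2 ratio of 0.09, and in the small subunit 19 of 21 with a median of 0.10. The large subunit median minus the small subunit median was -0.01, while the difference of the means was 0.01 in the other direction. The sign of this difference depended on the scaling and on the probe sets used. After quantile normalization the medians were -0.0040 for the large and -0.013 for the small subunit, and after lowess 0.03 and 0.0035. With the second brightest probe set, available for 8 large and 11 small subunit genes, the medians were 0.18 for the large and 0.06 for the small subunit, a difference of 0.12. Some probe sets have a name ending that marks probes able to match several transcripts, here called cross-matching. Without these, 10 large and 6 small subunit genes remained, at medians of 0.07 and 0.14, a difference of -0.08. Large subunit probe sets held 2.01% of the summed signal with ATCE1-C-del against 1.91% with empty vector, and small subunit probe sets 2.40% with ATCE1-C-del against 2.27% with empty vector.

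Large subunit genes with the highest ratios were read by probe sets of very different signal. Rpl27a, a core protein of the subunit, had a signal of 140.4 with ATCE1-C-del against 101 with empty vector, a log2 ratio of 0.48 (1.39-fold higher). Another probe set, whose annotation lists Rpl27a with predicted genes and which is therefore no member, read 5354 with ATCE1-C-del against 5221 with empty vector, a log2 ratio of only 0.04. The highest Rpl27a value thus came from a dim probe set and was not seen on the bright one. Rpl41, which encodes a very short basic peptide, read 6819 with ATCE1-C-del against 5986 with empty vector (0.19). Its next probe set stood at 0.22 and its dimmest at -0.12. Rpl39, a small protein lining the exit tunnel, read 129 with ATCE1-C-del against 114 with empty vector (0.18), and a brighter probe set with several symbols read 4348 with ATCE1-C-del against 3934 with empty vector (0.14). For Rpl39 dim and bright probe sets therefore lay close together. Rpl35, at the tunnel exit, read 5567 with ATCE1-C-del against 5028 with empty vector (0.15), and its 5 measured probe sets ran from 0.02 to 0.17.

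The lowest ratio of the family was that of Rpl22, an RNA-binding protein near the tunnel exit with a known role in T cell development in mice. Its signal was 1814 with ATCE1-C-del against 2205 with empty vector, a log2 ratio of -0.28 (1.22-fold lower), and its second probe set, at 470 with ATCE1-C-del against 506 with empty vector, was lower too (-0.11). Its paralog Rpl22l1, which can take its place in the ribosome, read 2703 with ATCE1-C-del against 2502 with empty vector (0.11). Rpl39l, a paralog of Rpl39 best known from testis, was level at 2606 with ATCE1-C-del against 2614 with empty vector (-0.0044). Rpl7l1, related to Rpl7, read 647 with ATCE1-C-del against 586 with empty vector (0.14), and its other probe set stood at 0.22. Rpl3l, the muscle form of Rpl3, was not measured, with signals of 5.60 for ATCE1-C-del and 1.5 for empty vector. Near 0 were also Rpl11 (0.02), Rpl14 (0.02), Rpl4 (0.02) and Rpl12 (0.03).

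By role, the stalk that recruits translation factors had its 3 measured genes at 0.03 for Rpl12, 0.10 for Rplp0 and 0.14 for Rplp2 in log2 ratio. Rplp0 read 5018 with ATCE1-C-del against 4693 with empty vector, and Rplp2 5720 with ATCE1-C-del against 5185 with empty vector. The Rpl12 member probe set was dim, at 152 with ATCE1-C-del against 150 with empty vector, and its brighter probe sets with several symbols stood at 0.12 and 0.16. Rpl11, which with Rpl5 and the 5S RNA forms a particle that can bind Mdm2, was nearly level at 3157 with ATCE1-C-del against 3118 with empty vector. Rpl5 has only probe sets with several symbols, and the brightest of these read 5851 with ATCE1-C-del against 5190 with empty vector (0.17). Of 7 measured exit tunnel genes 6 were higher, Rpl22 being the exception, and their median was 0.08, beside 23 of 25 higher over the large subunit. Among them Rpl4, which lines the tunnel, read 5431 with ATCE1-C-del against 5348 with empty vector, and Rpl19 read 5179 with ATCE1-C-del against 4919 with empty vector. Rpl37 read 1223 with ATCE1-C-del against 1151 with empty vector.

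Among small subunit genes, Rps4x had the highest ratio. This X-linked gene read 5322 with ATCE1-C-del against 4584 with empty vector, a log2 ratio of 0.22 (1.16-fold higher). Rps7, needed for processing of 18S rRNA, followed at 5600 with ATCE1-C-del against 4918 with empty vector (0.19), though its other member probe set stood at 0.06. Rpsa, which sits near the mRNA exit and is also known as the laminin receptor, read 5885 with ATCE1-C-del against 5271 with empty vector (0.16). Rps26, at the mRNA exit channel, read 4643 with ATCE1-C-del against 4162 with empty vector (0.16). Rps15, of the small subunit head, read 4322 with ATCE1-C-del against 3879 with empty vector (0.16) and stood at 0.22 on its other probe set. All 6 measured genes at the mRNA entry and exit were higher, from Rps3 (0.08) to Rpsa, with a median of 0.11. Of all measured small subunit genes 19 of 21 were higher. Under other settings Rps3, Rps28 and Rps14 fell to -0.03, -0.02 and -0.01 at their lowest. Rps3, at the mRNA entry, read 5681 with ATCE1-C-del against 5382 with empty vector, and Rps2 read 5279 with ATCE1-C-del against 4834 with empty vector.

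Rps25, a head protein that some viral internal ribosome entry sites need, was lowest in the small subunit. Its signal was 529 with ATCE1-C-del against 640.3 with empty vector, a log2 ratio of -0.27 (1.21-fold lower). A brighter probe set that lists Rps25 with other symbols went the opposite way, at 3273 with ATCE1-C-del against 2995 with empty vector (0.13). Rps6, the substrate of the S6 kinases, gave a like picture. Its only measured member probe set read 464 with ATCE1-C-del against 506 with empty vector (-0.12), whereas the brightest of those with several symbols read 5993 with ATCE1-C-del against 5821 with empty vector (0.04). The brightest probe set that lists either gene thus lay on the other side of 0 from the member value.

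Rps19, the gene most often mutated in Diamond-Blackfan anaemia, was level, at 4581 with ATCE1-C-del against 4570 with empty vector (0.0035). Rps10 and Rps20, which are ubiquitinated on stalled ribosomes, were near level on their brightest probe sets. Rps10 read 4947 with ATCE1-C-del against 4845 with empty vector (0.03), and Rps20 read 4146 with ATCE1-C-del against 4080.3 with empty vector (0.02). Their other measured probe sets lay between 0.04 and 0.12. Of 9 measured head genes 8 were higher with a median of 0.05, beside 19 of 21 higher over the small subunit. Among the higher ones were Rps18, Rps28 and Rps29. Rps18 read 6228 with ATCE1-C-del against 5805 with empty vector. Rps28 read 5494 with ATCE1-C-del against 5169 with empty vector, and Rps29 read 6055 with ATCE1-C-del against 5835 with empty vector. Rps27l, a paralog of Rps27 induced by p53, read 2482 with ATCE1-C-del against 2252 with empty vector (0.14). Rps27 itself stood at 0.13 on a dim probe set. A brighter probe set that lists Rps27 among several symbols was level, at 4129 with ATCE1-C-del against 4134 with empty vector (-0.0014). Rps4l was not measured, with signals of 0.700 for ATCE1-C-del and 0.5 for empty vector.

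On their brightest probe sets, genes between these ends lay close together. Of the large subunit, Rpl6, Rpl7, Rpl7a, Rpl8, Rpl10a, Rpl13a, Rpl19, Rpl27, Rpl37, Rpl37a and Rpl38 had log2 ratios from 0.06 (Rpl27) to 0.14 (Rpl7a). Rpl38, needed in mice for translation of Hox mRNAs, read 5440.1 with ATCE1-C-del against 5141 with empty vector (0.08). Of the small subunit, Rps2, Rps3a1, Rps9, Rps14, Rps18, Rps24, Rps28 and Rps29 ran from 0.03 (Rps24) to 0.14 (Rps3a1). For Rps24 the brightest of 5 measured probe sets gave the lowest ratio, and the others stood at 0.12, 0.12, 0.16 and 0.30, the last on a dim probe set that read 112 with ATCE1-C-del against 91.1 with empty vector. Rps14, a protein of the platform, read 4472 with ATCE1-C-del against 4193 with empty vector (0.09).

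**Figure D2:**
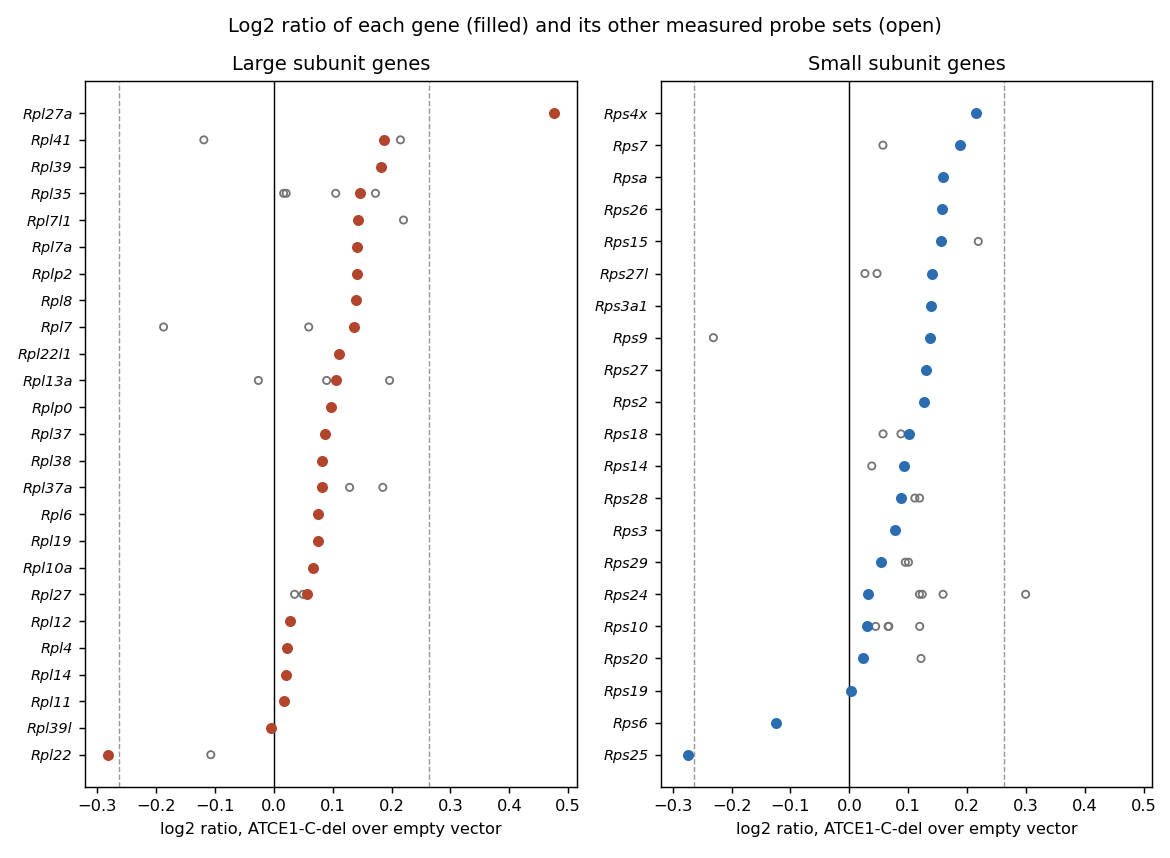
Log2 ratio (ATCE1-C-del over empty vector) of each measured large subunit gene (left) and small subunit gene (right). Filled points are the brightest probe set, open points the other measured member probe sets of the same gene, and dashed lines mark 1.2-fold. Of the 46 filled points 42 lie right of 0. Past a dashed line lie only the filled points of Rpl27a, Rpl22 and Rps25 and 1 open point, of Rps24.

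Different probe sets of 1 gene mostly lay on the same side, with an SD of 0.09 between them, pooled over genes, that holds no difference between cultures. Of the 19 genes with at least 2 measured member probe sets, 17 had the second brightest above 0, with a median of 0.09, and 4 (Rpl7, Rpl13a, Rpl41 and Rps9) had probe sets on both sides of 0. Rps9 was the widest, at 0.14 on the brightest probe set and -0.23 on a dim one that read 153 with ATCE1-C-del against 179 with empty vector. Of 84 measured member probe sets 75 were higher, and 9 lower, where 50.5% of all 11631 measured probe sets were higher and 49.5% lower. The remaining 16 member probe sets were under the floor on both arrays. Of the 100, 70 have a name ending that marks probes able to match several transcripts, whether of the same gene or of other genes. Ribosomal protein genes have many processed pseudogenes, so signals of close copies may be mixed in these values.

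A further 102 probe sets list a ribosomal protein gene among several symbols and were left out by the naming rule. They cover 44 such genes, of which 30 have no probe set of their own. Among the 89 measured, 71 were higher and 18 lower. Their median of 0.09 equals that of the members to 2 decimals. Rpl14 stood out in this group, a large subunit protein whose probe sets disagreed. The brightest read 4949 with ATCE1-C-del against 4081 with empty vector (0.28), and the next, at 2700.4 with ATCE1-C-del against 3048 with empty vector, went the other way (-0.17). The lowest read 2271 with ATCE1-C-del against 2878 with empty vector (-0.34), while the single member probe set was level at 226 with ATCE1-C-del against 223 with empty vector.

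The signals of most members lay at the bright end of the arrays, where other genes were higher as well. Among the 10% of measured genes with the highest signal there were 37 member genes and 644 others. The median signal with ATCE1-C-del was 5179 for these members and 2033 for the others, so they were not matched for signal. Of the others 60.2% were higher and 39.8% lower, at a median of 0.03, and of the 37 members 35 were higher and 2 lower, at a median of 0.10. At 1.2-fold 4.04% of these others were higher and 3.42% lower, and of the 37 members only Rpl22, which was lower. In these 37, all 18 small subunit genes were higher with a median of 0.11, and 17 of 19 large subunit genes with a median of 0.08. Of the 9 measured members under that limit, all 6 of the large subunit were higher (median 0.11) and 1 of 3 of the small subunit (median -0.12). The middle 50% of ratios ran from 0.06 to 0.14 in the 37 members and from -0.06 to 0.12 in the 644 others.

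**Figure D3:**
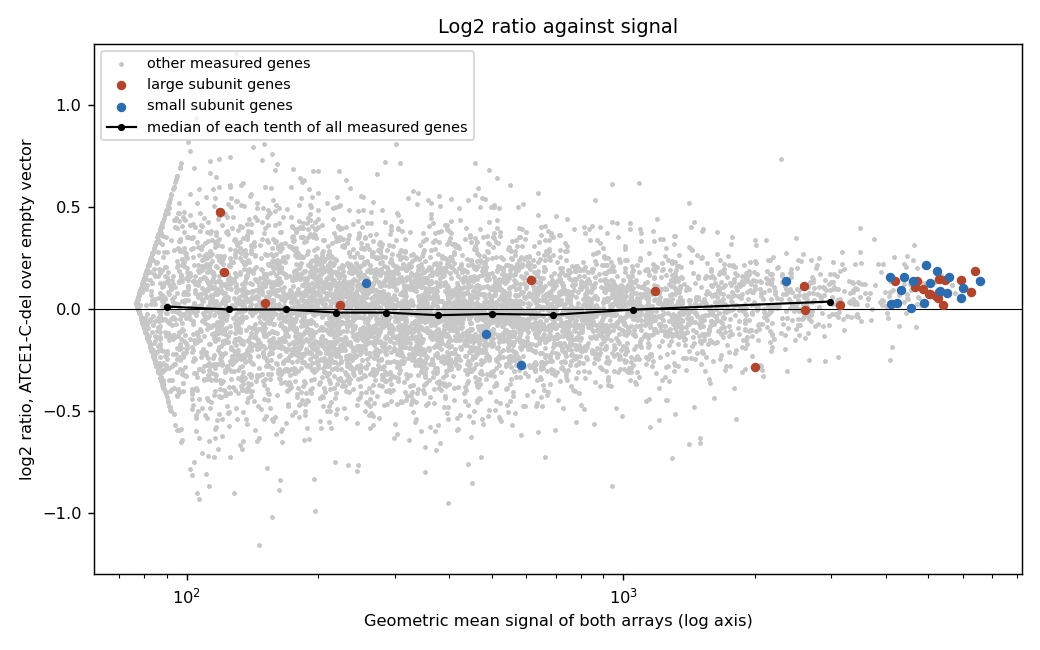
Log2 ratio (ATCE1-C-del over empty vector) against the geometric mean signal of both arrays (log axis), for large and small subunit genes and all other measured genes, with a line through the medians of 10 signal bins of all measured genes. Most members crowd at the right edge, to the right of the last point of the line, which lies at 0.04. Outside the drawn range fall 2 other genes.

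The small excess depended on how the arrays were scaled. After quantile normalization 12 of 25 large and 10 of 21 small subunit genes were higher, with medians of -0.0040 and -0.01. After lowess, which subtracts the trend of the ratio with signal, 14 large and 11 small subunit genes were higher, with medians of 0.03 and 0.0035. Quantile normalization and lowess act on all bright probe sets together, members included. On each array 15 of the 50 brightest probe sets were members. A difference shared by the bright members is thus partly removed, and these settings cannot tell it apart from an effect of signal. Scaling to the hybridisation controls moved the median of all genes to 0.24 and those of the large and small subunit to 0.33 and 0.35. This scaling shifts the log2 ratios of all genes by the same amount. The distance of 0.10 between members and all genes was therefore bound to stay, and this setting cannot test it. Of the 46 genes 21 lay on the same side of 0 under every setting run, 19 of them higher, among these Rps4x, Rpsa, Rps15, Rps26, Rpl41 and Rplp2. The other 2 were Rpl22 and Rps25. For Rps25 every setting read the same probe set, and the brighter one with several symbols, at 0.13, entered none. Not every gene entered each setting. Rps15 was scored under 11, but Rps4x, Rps26 and Rplp2 under 9, as their only measured member probe set has a name ending for several transcripts.

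**Figure D4:**
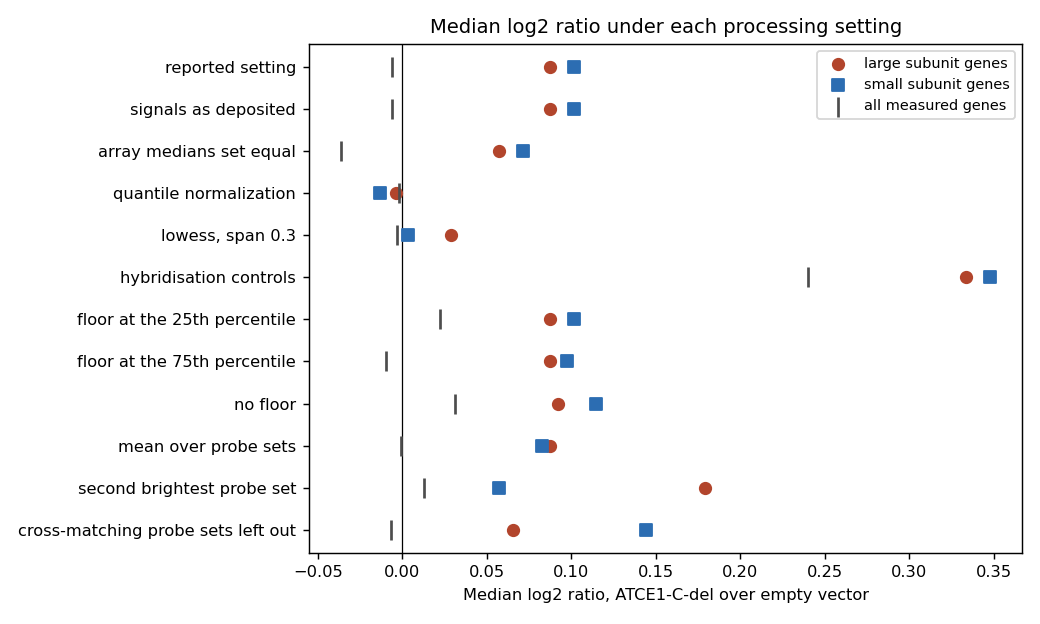
Median log2 ratio (ATCE1-C-del over empty vector) for large subunit genes (circles), small subunit genes (squares) and all measured genes (bars) under the reported setting and 11 others. Both subunits lie above all genes in every setting but quantile normalization, where the 3 medians are -0.0040, -0.01 and -0.0023. Signals as deposited, equal array medians and hybridisation controls shift all ratios equally. The distances between the 3 medians cannot change under these settings.

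The start regions of the members were set beside these ratios, since a TOP tract marks most genes of the family. RefSeq promoters on GRCm38.p6, from 250 bases before to 50 after each annotated start, were found for 42 of the 48 genes, with 50 starts. A run of at least 6 C or T on the gene's strand, reaching within 10 bases of the start, was found at 54% of these starts and at 29.2% of all 32851 promoters. The measured genes with such a run numbered 27, of which 24 were higher (median 0.09), and of 14 without it 13 were higher (median 0.12). Below are the starts of the highest and lowest ratios of each subunit, from 45 bases before the start to 15 after it, with the run in capitals.
Rpl27a, chr7:109519150-109519209, plus strand: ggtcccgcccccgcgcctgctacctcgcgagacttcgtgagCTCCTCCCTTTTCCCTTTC
Rpl41, chr10:128549154-128549213, minus strand: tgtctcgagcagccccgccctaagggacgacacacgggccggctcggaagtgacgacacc
Rps4x, chrX:102189377-102189436, minus strand: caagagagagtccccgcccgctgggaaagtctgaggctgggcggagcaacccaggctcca
Rps7, chr12:28635939-28635998, minus strand: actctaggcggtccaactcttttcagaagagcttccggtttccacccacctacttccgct
Rpl22, chr4:152325681-152325740, plus strand: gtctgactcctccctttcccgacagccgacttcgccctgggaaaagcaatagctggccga
Rpl39l, chr16:10170183-10170242, plus strand: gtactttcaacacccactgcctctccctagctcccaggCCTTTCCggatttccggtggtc
Rps25, chr9:44407669-44407728, plus strand: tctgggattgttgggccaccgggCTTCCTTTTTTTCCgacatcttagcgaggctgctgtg
Rps6, chr4:86857353-86857412, minus strand: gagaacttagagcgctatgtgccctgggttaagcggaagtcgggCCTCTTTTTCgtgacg
A run within 10 bases of the start was present at Rpl27a, Rpl39l, Rps25 and Rps6, and none was at Rpl41, Rps4x, Rps7 and the start of Rpl22 shown, although Rps7 and Rpl22 have pyrimidine runs farther upstream. On the member probe sets, genes at both ends of the range of ratios therefore had such a run and lacked it. The places of Rpl27a, Rps25 and Rps6 rest on dimmer probe sets. The brightest ones listing these genes with other symbols gave 0.04, 0.13 and 0.04. Rpl39l was nearly level. The annotated starts were not checked against transcript starts in these cells. A missing run therefore does not show that the mRNA lacks a TOP tract.

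Motifs of known transcription factors were counted on both strands of the same promoters. TGACG, the core of the cAMP response element that CREB family proteins bind, was in 40% of member starts, 35.7% in the large and 45.5% in the small subunit, and in 20.8% of all promoters. Of 20 measured genes with it 19 were higher, with a median of 0.11, and of 21 without it 18, with a median of 0.07. The full element TGACGTCA, which contains TGACG, was in 2 of 50 member starts and in 1.79% of all promoters. CGGAAG, the core bound by ETS factors, was in 60% of member starts and 16.9% of all promoters. The next lines show TGACG or its reverse complement CGTCA in capitals for all 8 members with either within 45 bases before to 15 after the start, in order of their ratio.
Rpl41, chr10:128549154-128549213, minus strand: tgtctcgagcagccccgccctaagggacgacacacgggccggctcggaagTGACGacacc
Rpsa, chr9:120127721-120127780, plus strand: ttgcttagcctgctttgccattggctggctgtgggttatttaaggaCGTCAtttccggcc
Rplp2, chr7:141447606-141447665, plus strand: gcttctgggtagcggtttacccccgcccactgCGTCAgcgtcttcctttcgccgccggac
Rps18, chr17:33955651-33955710, minus strand: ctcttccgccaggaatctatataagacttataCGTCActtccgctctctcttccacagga
Rps28, chr17:33824548-33824607, minus strand: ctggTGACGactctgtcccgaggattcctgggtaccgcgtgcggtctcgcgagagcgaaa
Rpl37a, chr1:72711215-72711274, plus strand: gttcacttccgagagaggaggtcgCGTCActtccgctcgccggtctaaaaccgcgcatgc
Rpl6, chr5:121204456-121204515, plus strand: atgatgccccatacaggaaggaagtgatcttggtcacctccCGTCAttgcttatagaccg
Rps6, chr4:86857353-86857412, minus strand: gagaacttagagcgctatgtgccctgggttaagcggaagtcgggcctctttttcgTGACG
Of these 8 genes 7 were higher, near the share of 42 of 46 over all measured members. The 7 had log2 ratios from 0.08 for Rpl6 to 0.19 for Rpl41. Rps6 was lower at -0.12 on its member probe set, while the brightest one listing it with other symbols stood at 0.04. A match describes these letters only and shows no binding.

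Other genes of the same pathway were read beside the members. Of all measured genes 48.7% were higher, and of the genes outside the family in the top 10% of signal 60.2%. Of 16 measured TOP mRNAs that encode no ribosomal protein 15 were higher, at a median of 0.13 and with none past 1.5-fold. The lower one was Hnrnpa1 (-0.07), an RNA-binding protein. Pabpc1, the poly(A)-binding protein, read 5171 with ATCE1-C-del against 4165 with empty vector (0.31). Npm1, a nucleolar chaperone, read 5012 with ATCE1-C-del against 4236 with empty vector (0.24). The histone chaperone gene Nap1l1 stood at 0.22, with 6 other probe sets from -0.17 to 0.14, and the elongation factor gene Eef1d at 0.21, with 2 others from -0.12 to 0.30. These genes are bright too, and quantile normalization and lowess left 9 of 16 higher with either, at medians of 0.02.

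Of genes for ribosome assembly and rRNA synthesis, 27 of 34 measured were higher, at a median of 0.18, where 48.7% of all measured genes were higher. Their median signal was 423 with ATCE1-C-del against 385 with empty vector, far under that of the members. Rrp9, a U3 snoRNP protein, read 187 with ATCE1-C-del against 108 with empty vector (1.73-fold higher) and was the only gene of this list past 1.5-fold, where 2.01% of all measured genes passed it either way. Grwd1, a histone-binding assembly factor, read 300.3 with ATCE1-C-del against 214 with empty vector (1.40-fold higher). Nop56, of the box C/D snoRNP, read 883 with ATCE1-C-del against 672 with empty vector (1.31-fold higher), and Myc, which drives ribosome synthesis, 332 with ATCE1-C-del against 257 with empty vector (1.29-fold higher). Quantile normalization and lowess left 27 of the 34 higher with either.

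Genes of mTORC1 and of translational control lay on both sides, with 6 of 13 measured higher and a median of -0.00035. Here too the share over all measured genes was 48.7% higher. Tsc1, an mTORC1 inhibitor, read 157 with ATCE1-C-del against 206 with empty vector (-0.39), but its other probe set stood at 0.16, and Cnbp, an RNA-binding protein, stood at 0.34 and on its other probe set at -0.14. Pdpk1, an upstream kinase, was at -0.27, with another probe set at -0.50, and Mtor itself at -0.18. Mitochondrial ribosomal protein genes, which serve a separate ribosome, had 42 of 74 higher with a median of 0.02, from Mrpl48 at -0.60, with another probe set at -0.01, to Mrpl20 at 0.68.

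**Figure D5:**
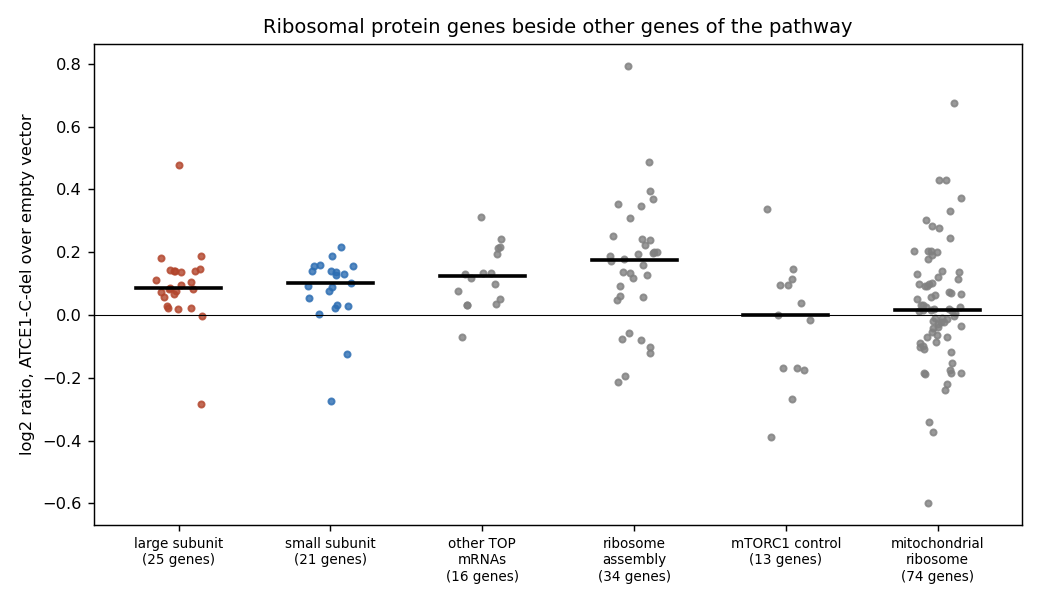
Log2 ratio (ATCE1-C-del over empty vector) for each measured gene of the large and small subunit and of 4 other groups of the pathway, with the median of each group as a bar. Medians are 0.09 and 0.10 for the subunits, 0.13 for other TOP mRNAs, 0.18 for ribosome assembly, -0.00035 for mTORC1 control and 0.02 for the mitochondrial ribosome.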

How the data were processed

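Biotin-labelled total RNA of 2 samples was hybridised to Affymetrix mouse arrays. The values are MAS5 signal intensities on a linear scale as deposited by the authors, made with MAS5 per the submitters' processing notes. The number of arrays, 1 per group, limits the precision. Each array was divided by its mean after trimming 2% at either end. Signals under the array median, over 22626 probe sets without 64 controls, were raised to it before taking log2. The platform annotation gives 20393 probe sets 1 symbol, 691 several and 1606 none, and all 48 member genes were found in the RefSeq table (GRCm38.p6) by Entrez ID. A gene was read from its brightest probe set, by mean log2 signal over both arrays. The thresholds were 1.5-fold and 1.2-fold. Full values were given for the 4 highest and lowest ratios of each subunit, role lists, paralogs and unmeasured members, and up to 4 genes of each other list. Hnrnpa1 was named after its value was seen. Members, lists and settings were chosen with earlier results of these data known. The calculation was tested on simulated data. Alternatives were other scalings, floors, probe set rules and thresholds. Python 3.11.15, pandas 2.3.3 and statsmodels 0.14.6 were used.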

Additional observations from a re-analysis of the deposited data

How the results depend on the processing

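With 1 array per group nothing was tested, leaving out a replicate was not possible, and probe sets of 1 gene give the only spread. No paired analysis was possible because each group has 1 array. Equal array medians gave a member median of 0.06, with 36 higher (19 large, 17 small) and 10 lower. The cause of the other changes was not tested unless fewer genes entered. Quantile normalization gave a median of -0.0040 for all members, with 22 higher (12 large, 10 small), and -0.013 for the small subunit, with 1 member and 0 small subunit genes lower by 1.2-fold. Lowess gave 25 higher (14 large, 11 small), a small subunit median of 0.0035, and the same 1 and 0 lower by 1.2-fold. Medians of other TOP mRNAs were 0.020 after quantile normalization and 0.023 after lowess, 9 being higher with either, and 1 mitochondrial gene passed 1.5-fold.

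Scaling to hybridisation controls gave medians of 0.34 for members, 0.33 for the large and 0.35 for the small subunit. There 41 members (23 large, 18 small) were higher by 1.2-fold, 0 were lower by it, and 1 large subunit gene passed 1.5-fold. Medians were 0.37 for other TOP mRNAs, 0.423 for assembly (6 past 1.5-fold), 0.25 for mTORC1 control (11 higher) and 0.26 for mitochondrial genes (71 higher, 4 past 1.5-fold). With no floor 3 members were higher by 1.2-fold (2 large, 1 small), and 1 large subunit gene and 1 mTORC1 control gene passed 1.5-fold. With the floor at the 25th percentile 1 mTORC1 control gene did so too. Both settings let in genes under the array medians, with 14 mTORC1 control genes scored in place of 13. The members added with no floor were Rpl3l and Rps4l, not measured in the reported setting. Rpl3l read 5.60 with ATCE1-C-del against 1.5 with empty vector, and Rps4l 0.700 with ATCE1-C-del against 0.5 with empty vector. With the floor at the 75th percentile 0 members were higher by 1.2-fold, and 0 assembly and 0 mitochondrial genes passed 1.5-fold.

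Averaging probe sets left 1 member lower by 1.2-fold, 0 of them large, and 1 mitochondrial gene past 1.5-fold. The second brightest probe set exists for fewer genes: 17 members were higher (7 large, 10 small), 0 passed 1.2-fold either way, and the large minus small subunit median was 0.12. It left 6 other TOP, 11 assembly and 12 mitochondrial genes higher, with 0 assembly and 1 mitochondrial genes past 1.5-fold. It turned Tsc1 to 0.16, Cnbp to -0.14 and Mrpl50 to -0.093. Without cross-matching probe sets, again fewer genes, 12 members were higher (8 large, 4 small), 2 of them by 1.2-fold (1 small), with 6 other TOP mRNAs higher and 1 mitochondrial gene past 1.5-fold. With 1.2-fold in place of 1.5-fold, 1 member was higher and 2 were lower (1 large, 1 small), and 1 other TOP, 7 assembly, 3 mTORC1 control and 11 mitochondrial genes passed either way.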
